A study of Mus musculus with 6 samples.

Results

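The genes described here encode the machines that carry proteins into mitochondria and fold, trim or degrade them there. They were taken from the deposited table as every row whose symbol starts with Timm or Tomm, together with 15 further named genes (Pam16, Samm50, Mtx1, Mtx2, Hspd1, Hspe1, Hspa9, Trap1, Grpel1, Grpel2, Lonp1, Clpp, Clpx, Pmpca and Pmpcb), without pseudogenes. That gave 40 genes out of 16540, of which 39 are protein coding and 1, Tomm6os, is an antisense RNA at the Tomm6 locus. All 40 passed the filter on low values, and 2 genes that the same names would cover, Timm8a2 and Tomm20l, have no row and are not analysed here. The rule goes by names and uses no measured value.

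Nearly all mitochondrial proteins are made in the cytosol and enter through the TOM complex of the outer membrane. From there the SAM complex inserts barrel proteins of the outer membrane, small Tim chaperones escort hydrophobic carriers to the TIM22 translocase, and precursors with a cleavable presequence pass through TIM23, pulled by a motor built on the mitochondrial Hsp70. In the matrix a peptidase removes the presequence, the Hsp60 and Hsp10 chaperonin folds the product, and the Lon and Clp proteases degrade what fails to fold. Transcripts for several of these proteins are known to respond when protein folding in mitochondria is disturbed.

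RNA was sequenced in 6 libraries of NIH-3T3, a fibroblast line derived from mouse embryos. The targeted cells were uncloned pools that carried Cas9 and a guide against pyruvate carboxylase, either PC sg2 (n = 2 libraries) or PC sg5 (n = 2), and the control pools carried Cas9 and the guide R26 sg1 (n = 2). All pools were made with lentivirus, selected with 2 µg/mL puromycin and kept for 48 h in DMEM with 0.2 mM glutamine and 10% dialyzed serum, so low glutamine was shared by every group. Pyruvate carboxylase makes oxaloacetate from pyruvate inside mitochondria. Nothing in the labels ties the 2 libraries of a guide to separate cultures, so the spread behind each p-value is that between libraries and may be technical.

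Library depth lay between 22895172 recovered reads (PC sg5 replicate 2) and 71710049 (control replicate 2), and the lowest value of any protein-coding gene of the set was 357 normalised counts, so 3 reads (2.18 to 6.41 normalised counts per library) were far below every one of them. A normalised count is a read count divided by the size factor of its library. The targeted gene Pcx had 316 and 375 normalised counts with PC sg2, 713 and 716 with PC sg5, and 2914 and 3015 in the control. Of 10 fibroblast markers 9 had a row, with a summed level of 501999 to 525819 normalised counts in PC libraries and 1210554 to 1259959 in the control, led by Vim, Col1a2 and Col1a1. Of 14 markers of epithelium, leukocytes and endothelium 6 had a row, among them the leukocyte gene Cd74 and the epithelial gene Cdh1, while Epcam, Ptprc and Cdh5 had none. The summed level was 8.55 to 19.1 in PC libraries and 57.4 to 58.7 in the control for epithelium, 1150.3 to 1244 and 1731 to 1771 for leukocytes, and 32.4 to 53.0 and 36.3 to 45.5 for endothelium, and the part of these differences in the results below was not tested. In pools like these, fewer cells with a transcript and less of it per cell cannot be told apart.

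Most of the import and chaperone transcripts were higher with the pyruvate carboxylase guides. Of the 40 genes 31 rose, 2 fell and 7 did not pass the threshold, which is an adjusted p under 0.05 in limma for the average over both PC guides set against control. By the same rule 77.5% of the 40 rose and 5% fell, against 34.3% and 33.6% of all 16526 genes tested (67.9% in either direction). The genes tested include many with low counts. With only the 12921 genes that had a mean of at least 50 normalised counts, 40.9% rose, and 31 of the 40 did. The median log2 fold change was 0.44 over the 40 genes and -0.0093 over all genes tested. Fold changes are on the log2(normalised count + 1) scale. In 31 of the 40 all 4 PC libraries lay above both controls, in 2 all 4 lay below, and in 7 the groups overlapped, while 36.6% of all genes tested had all 4 above and 36.6% all 4 below. At least 2-fold higher were 5 of the 40 (12.5%), namely Timm10, Timm8a1, Timm23, Timm9 and Grpel2, against 6.48% of all genes tested. The lowest log2 fold change of the 40 was -0.24, while 11.3% of all genes tested fell at least 2-fold. The rises were graded: 23 of the 40 genes lay above the upper quartile of all genes (0.40), while none lay below the lower quartile (-0.50).

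**Figure D1:**
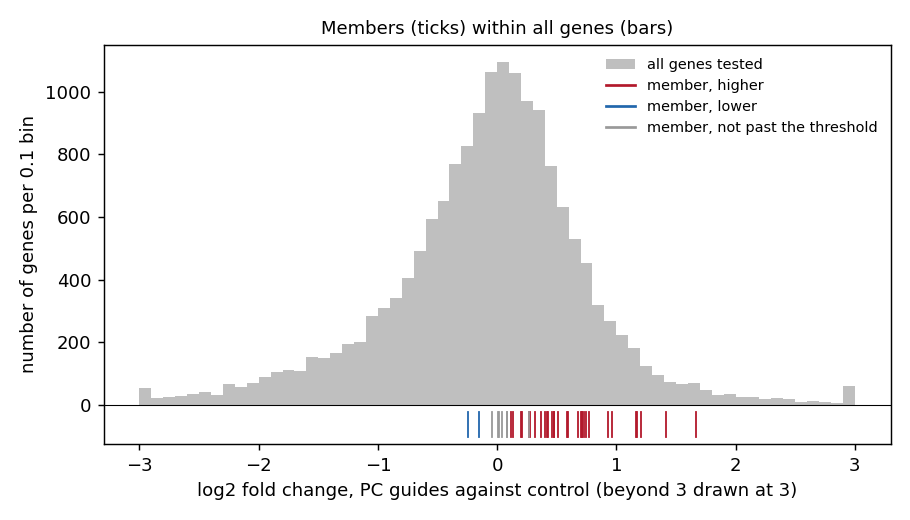
Histogram of the log2 fold change (horizontal axis, both PC guides against control) of the 16526 genes tested, as the number of genes per bin (vertical axis, with genes beyond 3 drawn at 3), with a tick below the axis for each of the 40 import and chaperone genes. Ticks run from -0.24 (Trap1) to 1.67 (Timm10), with 31 coloured as higher, 2 as lower and 7 as not past the threshold.

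The top 2 rises of the set were small Tim chaperones, Timm10 and Timm8a1. These proteins form hexamers in the intermembrane space that shield hydrophobic precursors, and 5 of 6 rose with a median log2 fold change of 0.84. Timm10, which pairs with Timm9 in the main hexamer, had 1508 and 1583 normalised counts with PC sg2, 1636 and 1507 with PC sg5, and 497 and 484 in the control. The PC libraries all lay far above both controls, and the ratio of the means was 3.18, while the log2 fold change was 1.67 ± 0.062 (SE) with a Benjamini-Hochberg p by limma of 5.02e-16. Timm8a1, the mouse counterpart of the deafness-dystonia protein, had 1086 and 1087 normalised counts with PC sg2, 989 and 1173 with PC sg5, and 419.9 and 392 in the control. Its log2 fold change was 1.41 ± 0.076 (SE), the second highest of the 40, with a Benjamini-Hochberg p by limma of 3.33e-13. Timm9 had 1389 and 1492 normalised counts with PC sg2, 1439.5 and 1413 with PC sg5, and 643 and 630.2 in the control, a ratio of means of 2.25 and a log2 fold change of 1.17 ± 0.059 (SE). Timm13, which works with Timm8a1 in a second hexamer, and Timm8b, a paralog of Timm8a1, rose less. Timm13 averaged 3755 ± 230.5 normalised counts (SD, n = 4) in PC libraries and 2639 ± 54.4 (SD, n = 2) in the control, with a log2 fold change of 0.51 ± 0.038 (SE). Timm8b averaged 1191 ± 87.5 normalised counts (SD, n = 4) in PC libraries and 882 ± 38.8 (SD, n = 2) in the control, with a log2 fold change of 0.43 ± 0.061 (SE). The sixth member, Timm10b, a membrane-bound small Tim of the carrier pathway, averaged 672 ± 59.6 normalised counts (SD, n = 4) in PC libraries and 634 ± 86.9 (SD, n = 2) in the control and did not pass (Benjamini-Hochberg p by limma = 0.364), and its groups overlapped. Of these genes, Timm10b shares 22.1% and Timm8b 15.6% of their exon bases with other annotated genes.

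Both genes of the TIM22 translocase rose, with a median log2 fold change of 0.59. Timm22, the channel for carriers, averaged 2282 ± 109.7 normalised counts (SD, n = 4) in PC libraries and 1663 ± 123 (SD, n = 2) in the control, with a log2 fold change of 0.46 ± 0.054 (SE). Timm29, a subunit that links TIM22 to the TOM complex, rose more, by 0.71 ± 0.042 (SE), and averaged 3517 ± 123 normalised counts (SD, n = 4) in PC libraries and 2144 ± 3.25 (SD, n = 2) in the control. In the TIM23 translocase for presequence proteins 4 of 5 genes rose, with a median of 0.48. The channel gene Timm23 had 5416 and 5394 normalised counts with PC sg2, 5019 and 5179 with PC sg5, and 2272 and 2272 in the control. Its control libraries were nearly equal and all 4 PC libraries lay far above them. The ratio of means was 2.31 and the log2 fold change 1.21 ± 0.035 (SE), with a Benjamini-Hochberg p by limma of 1.00e-17. Timm50, the receptor that passes precursors to the channel, averaged 3034 ± 114 normalised counts (SD, n = 4) in PC libraries and 1848 ± 16.4 (SD, n = 2) in the control and rose by 0.71 ± 0.043 (SE). Timm21, which contacts the TOM complex, had 1434 and 1433 normalised counts with PC sg2, 1543 and 1443 with PC sg5, and 1154 and 1284 in the control, a smaller rise of 0.26 ± 0.058 (SE). Timm17a had 3663 and 3721 normalised counts with PC sg2, 3783 and 3837 with PC sg5, and 2703 and 2673 in the control and rose by 0.48 ± 0.037 (SE), whereas its X-linked paralog Timm17b had 1625 and 1624 normalised counts with PC sg2, 1487 and 1434 with PC sg5, and 1565 and 1616 in the control and did not pass (Benjamini-Hochberg p by limma = 0.436).

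The import motor, which uses ATP to pull precursors inward, rose in 4 of its 5 genes, with a median log2 fold change of 0.75. Hspa9, the mitochondrial Hsp70 also called mortalin, had 67069.5 and 66395 normalised counts with PC sg2, 65315 and 64226 with PC sg5, and 34982 and 33926 in the control. All 4 PC libraries lay in a narrow range above both controls. The ratio of means was 1.91 and the log2 fold change 0.93 ± 0.021 (SE), with a Benjamini-Hochberg p by limma of 9.22e-20. Both nucleotide exchange factors of Hspa9 rose. Grpel2 had 3775 and 3917 normalised counts with PC sg2, 3763 and 3759.9 with PC sg5, and 1708 and 1687 in the control, a log2 fold change of 1.16 ± 0.04 (SE). Grpel1, its paralog, averaged 4497 ± 88.4 normalised counts (SD, n = 4) in PC libraries and 2676 ± 107 (SD, n = 2) in the control, a log2 fold change of 0.75 ± 0.038 (SE). The membrane anchor Timm44 averaged 4739 ± 144 normalised counts (SD, n = 4) in PC libraries and 3669.6 ± 34.3 (SD, n = 2) in the control and rose by 0.37 ± 0.035 (SE). Pam16, a J-like regulator of the motor, averaged 1059.7 ± 71.8 normalised counts (SD, n = 4) in PC libraries and 997 ± 52 (SD, n = 2) in the control and did not pass (Benjamini-Hochberg p by limma = 0.253). Of these motor genes, Pam16 shares 18.7% of its exon bases with Glis2 and Grpel1 11.6% with Tada2b.

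At the outer membrane the median log2 fold changes were 0.45 for the 4 genes listed as receptors (4 rose), 0.31 for the 5 of the channel and small subunits (3 rose) and 0.20 for the 3 of SAM and metaxins (2 rose and 1 fell). Tomm20, the main presequence receptor, had 15950.4 and 16067 normalised counts with PC sg2, 16205 and 15845 with PC sg5, and 12079 and 11947 in the control. The ratio of means was 1.33, the log2 fold change 0.41 ± 0.025 (SE) and the Benjamini-Hochberg p by limma 2.23e-12. Tomm22, the central receptor of the complex, averaged 5414 ± 174 normalised counts (SD, n = 4) in PC libraries and 3885 ± 4.09 (SD, n = 2) in the control and rose by 0.48 ± 0.035 (SE). Tomm70a, the receptor for carriers delivered by cytosolic chaperones, averaged 11299 ± 359.6 normalised counts (SD, n = 4) in PC libraries and 7479 ± 203 (SD, n = 2) in the control and rose by 0.60 ± 0.029 (SE). The channel gene Tomm40 had 5877 and 5804 normalised counts with PC sg2, 5750.0 and 5932 with PC sg5, and 3611 and 3678 in the control, a log2 fold change of 0.68 ± 0.033 (SE) with a Benjamini-Hochberg p by limma of 6.42e-14. Tomm40l, a paralog of Tomm40, averaged 477 ± 27.7 normalised counts (SD, n = 4) in PC libraries and 470.0 ± 17.6 (SD, n = 2) in the control and did not pass (Benjamini-Hochberg p by limma = 0.866), with 64.3% of its exon bases shared with Nr1i3. Of the 3 small subunits 2 passed, and the difference between them was not tested. Tomm5 averaged 2612 ± 83.9 normalised counts (SD, n = 4) in PC libraries and 1739 ± 113 (SD, n = 2) in the control and rose by 0.59 ± 0.048 (SE). Tomm7 averaged 1944 ± 113 normalised counts (SD, n = 4) in PC libraries and 1935 ± 36 (SD, n = 2) in the control, with a log2 fold change of 0.005 ± 0.047 (SE) that did not pass. Tomm6 averaged 479 ± 72.1 normalised counts (SD, n = 4) in PC libraries and 383 ± 36.6 (SD, n = 2) in the control and rose by 0.31 ± 0.11 (SE), a call that was lost without PC sg5 replicate 2 (0.20) or control replicate 1 (0.22), and 84.2% of its exon bases are shared with other genes. Tomm6os had 49.1 and 86.1 normalised counts with PC sg2, 47.5 and 74.8 with PC sg5, and 57.4 and 46.4 in the control, its groups overlapped, and reads of the 2 Tomm6 locus genes cannot be told apart without strand.

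Tomm34, a cytosolic co-chaperone despite its name, had 1971 and 2084 normalised counts with PC sg2, 1993 and 2093 with PC sg5, and 1850.3 and 1860.0 in the control. The rise of 0.13 ± 0.047 (SE) was lost without PC sg2 replicate 2 (0.11) and without either control (0.13 without replicate 1, 0.14 without replicate 2). Samm50, the core of the SAM complex, averaged 8683 ± 189 normalised counts (SD, n = 4) in PC libraries and 6571 ± 28.4 (SD, n = 2) in the control and rose by 0.40 ± 0.03 (SE). The metaxins, which belong to the same complex, moved in opposite directions. Mtx1 had 2334 and 2173 normalised counts with PC sg2, 2215 and 2274 with PC sg5, and 1935 and 1981 in the control and rose by 0.20 ± 0.046 (SE), with 30.1% of its exon bases shared with Thbs3 and Gm43737. Mtx2 had 2973 and 2881 normalised counts with PC sg2, 2889 and 2749 with PC sg5, and 3249 and 3117 in the control. It was 1 of only 2 genes of the set that fell, and the log2 fold change was -0.15 ± 0.041 (SE) with a Benjamini-Hochberg p by limma of 0.00312, and the call was lost without control replicate 1 (-0.12).

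**Figure D2:**
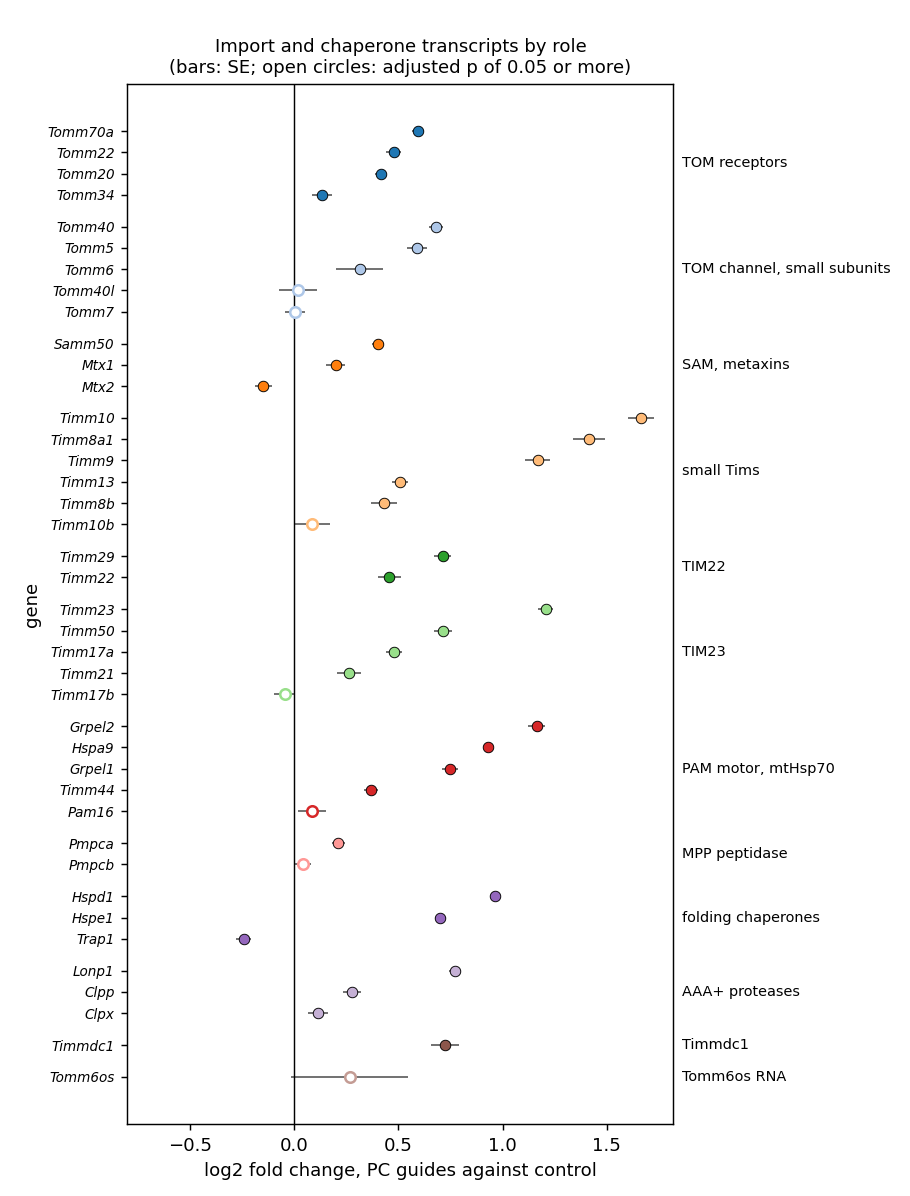
Log2 fold change of both PC guides against control (horizontal axis) for the 40 genes (vertical axis), grouped by role. Points are estimates from 4 PC and 2 control libraries, bars are standard errors and open circles mark the 7 genes that did not pass. Timm10, Timm8a1, Timm23, Timm9 and Grpel2 lie above 1, while Trap1 and Mtx2 are the filled points left of 0.

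Of the 3 folding chaperones of the matrix 2 rose and 1 fell. Hspd1, which encodes Hsp60, had 41262 and 41602 normalised counts with PC sg2, 43729.7 and 43208 with PC sg5, and 21896 and 21613 in the control. The ratio of means was 1.95, the log2 fold change 0.96 ± 0.021 (SE) and the Benjamini-Hochberg p by limma 8.17e-20. Hspe1, which encodes the lid protein Hsp10, had 11355 and 11443 normalised counts with PC sg2, 13106 and 12568 with PC sg5, and 7394 and 7480.0 in the control. It rose by 0.70 ± 0.028 (SE), with a Benjamini-Hochberg p by limma of 1.81e-15. Trap1, the mitochondrial member of the Hsp90 family, had 5575 and 5569.7 normalised counts with PC sg2, 5729 and 5248 with PC sg5, and 6519 and 6557 in the control. All 4 PC libraries lay below both controls, and the log2 fold change was -0.24 ± 0.035 (SE) with a Benjamini-Hochberg p by limma of 3.05e-06.

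The stretch between these genes is shown because Hspd1 and Hspe1 are read from it in opposite directions and both rose. They share 4.24% of the Hspd1 and 7.60% of the Hspe1 exon bases with each other. RefSeq (GRCm38.p6) places an Hspd1 start at 55087932 on the minus strand and the Hspe1 start at 55088148 on the plus strand, with 215 bases between them, although a second Hspd1 start at 55088243 lies inside Hspe1. The stretch chr1:55087933-55088147 reads as follows on the plus strand, towards Hspe1, with capitals for matches on either strand to the heat shock element (GAA, TTC and GAA, each 2 bases apart) and the ETS site CCGGAAG, which overlap.
Hspe1: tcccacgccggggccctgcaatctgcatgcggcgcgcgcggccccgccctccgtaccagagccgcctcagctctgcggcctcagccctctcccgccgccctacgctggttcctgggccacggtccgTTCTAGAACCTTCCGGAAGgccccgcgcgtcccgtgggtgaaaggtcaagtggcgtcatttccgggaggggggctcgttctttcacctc

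All 3 genes of the matrix proteases rose, with a median of 0.28. Lonp1, the Lon protease of the matrix, rose most of them and had 23158 and 23442 normalised counts with PC sg2, 22974 and 21747 with PC sg5, and 13777 and 12985 in the control. Its log2 fold change was 0.77 ± 0.028 (SE), with a Benjamini-Hochberg p by limma of 3.97e-16. Clpp, the peptidase of the other matrix machine, had 2496 and 2392 normalised counts with PC sg2, 2557 and 2488 with PC sg5, and 1996 and 2098 in the control and rose by 0.28 ± 0.044 (SE). Clpx, the unfoldase that feeds Clpp, had 2196 and 2140.1 normalised counts with PC sg2, 2026 and 2242 with PC sg5, and 2011 and 1963 in the control. Its log2 fold change of 0.11 ± 0.049 (SE) was close to the threshold (Benjamini-Hochberg p by limma = 0.0444) and the call was lost without either control or without PC sg5 replicate 2 (0.096 without control replicate 2, 0.13 without control replicate 1 and 0.077 without that PC library), and likewise without either PC sg2 library (0.10 and 0.12). The presequence peptidase, with 2 subunits, had the lowest median of the roles (0.13). Pmpca had 6199.9 and 6142 normalised counts with PC sg2, 5978 and 5932 with PC sg5, and 5238 and 5233 in the control and rose by 0.21 ± 0.031 (SE). It shares 20.4% of its exon bases with Inpp5e. Pmpcb averaged 3705 ± 46.2 normalised counts (SD, n = 4) in PC libraries and 3595 ± 115 (SD, n = 2) in the control and did not pass (Benjamini-Hochberg p by limma = 0.31). Timmdc1, which shares the symbol but is known as an assembly factor of respiratory complex I, averaged 1565 ± 56.8 normalised counts (SD, n = 4) in PC libraries and 950.3 ± 126 (SD, n = 2) in the control and rose by 0.72 ± 0.066 (SE).

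**Figure D3:**
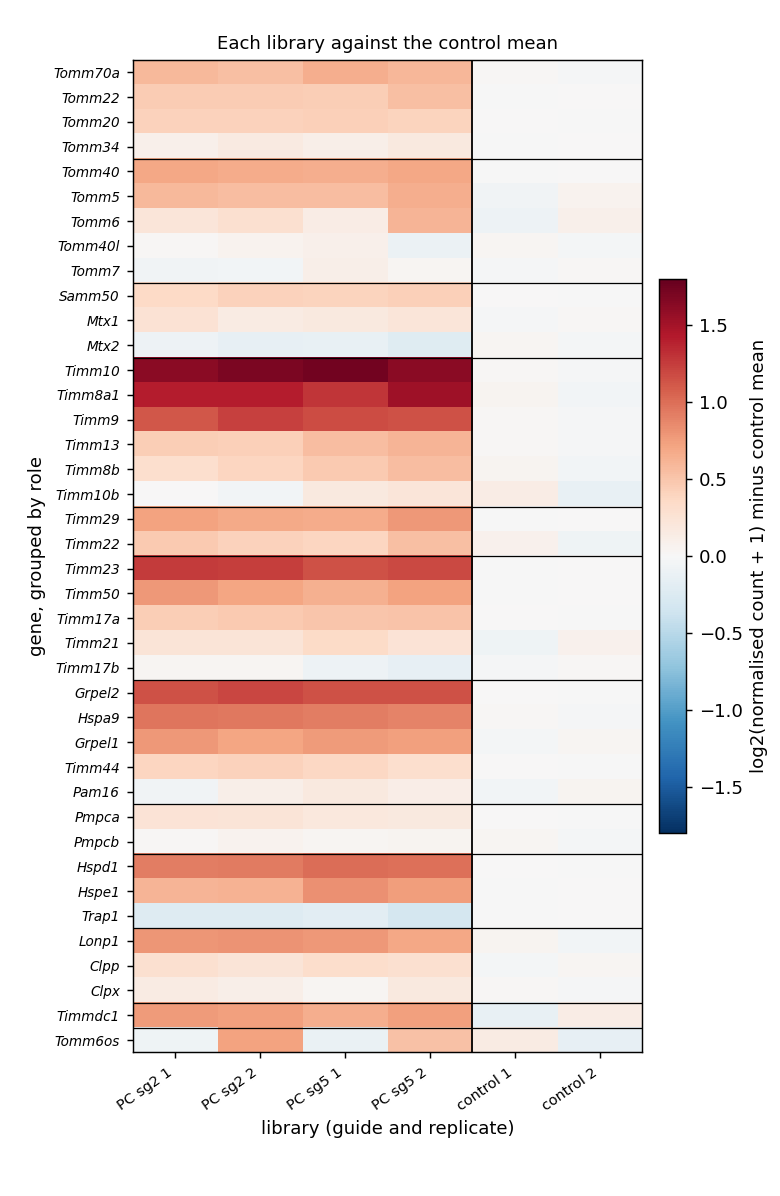
Heat map of log2(normalised count + 1) minus the control mean for the 40 genes (rows, grouped by role) in the 6 libraries (columns, the PC libraries on the left). Red is higher and blue is lower than the control mean. The 4 PC columns are alike, with the deepest red at Timm10, Timm8a1, Timm23, Timm9 and Grpel2.

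Levels of different genes were compared as normalised counts per kilobase of annotated exon. Hspd1, Hspa9, Hspe1 and Lonp1 had the 4 highest levels of the set in both groups, while Trap1 had 2149 ± 78.6 in PC libraries (SD, n = 4) and 2541 ± 10.5 in the control (SD, n = 2). Hspd1 reached 16068 ± 455 in PC libraries (SD, n = 4) and 8234 ± 75.8 in the control (SD, n = 2). For Hspa9 these levels were 15256 ± 289 in PC libraries (SD, n = 4) and 7994 ± 173 in the control (SD, n = 2), and for Hspe1 8221 ± 583 in PC libraries (SD, n = 4) and 5045 ± 41.4 in the control (SD, n = 2). Lonp1 had 5219 ± 171 in PC libraries (SD, n = 4) and 3059 ± 128 in the control (SD, n = 2). Hspd1 and Hspa9 lay so close that their order rests on the annotated exon length, and both stood above Hspe1 and Lonp1 in both groups. The strongest riser, Timm10, reached 1912 ± 76.7 in PC libraries (SD, n = 4) and 602 ± 11.9 in the control (SD, n = 2), and its partner Timm9 335 ± 10.3 in PC libraries (SD, n = 4) and 149 ± 2.1 in the control (SD, n = 2). Exon lengths come from all annotated transcripts, so a gene with long rarely used exons is placed too low.

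Taken singly, the PC guides gave similar counts. With PC sg2 29 genes rose and 2 fell, where 32.9% and 31.6% of all genes tested did (64.5% in either direction). With PC sg5 30 rose and 2 fell, where 32.6% and 31.8% did (64.5% in either direction). These comparisons share the control libraries. The median log2 fold change over the 40 genes was 0.42 with PC sg2 and 0.48 with PC sg5. Tested directly, PC sg5 against PC sg2 changed 1 of the 40 genes, where 0.242% of all genes tested passed. That gene was Hspe1, whose PC sg5 libraries (13106 and 12568 normalised counts) both lay above its PC sg2 libraries (11355 and 11443). The log2 difference was 0.17 ± 0.032 (SE), with a Benjamini-Hochberg p by limma of 0.0247. The call was lost without PC sg2 replicate 1 (0.17), PC sg2 replicate 2 (0.18) or PC sg5 replicate 1 (0.14). The next genes by p were Timm13, Hspd1, Timm17b and Tomm7, with log2 differences of 0.15, 0.069, -0.15 and 0.13 and a lowest Benjamini-Hochberg p by limma of 0.1996 (Timm13). Pcx was also higher in the 2 PC sg5 libraries than in the 2 PC sg2 libraries (log2 difference 1.05, Benjamini-Hochberg p by limma = 6.60e-07), and the part of this in the Hspe1 difference was not tested.

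Paralogs and partners were set against each other as 9 ratios between 2 genes of the set, taken in each library as log2 of normalised counts + 1. In each of the 9 the PC and control libraries did not overlap, but single genes often separate the libraries too (36.6% of all genes tested with all 4 PC libraries above and 36.6% below), and the share among other gene pairs was not computed, so this cannot be read as a trait of these pairs. With 4 libraries against 2 the exact two-sided permutation test has 15 arrangements and cannot go below p = 0.133, the value that each ratio gave before and after Benjamini-Hochberg adjustment over the 9, so no ratio could pass. The log2 ratio of Timm8a1 to Timm8b was -0.0072 and -0.088 with PC sg2, -0.30 and -0.14 with PC sg5, and -1.11 and -1.12 in the control. The difference of group means was 0.98, the largest of the 9. For Tomm40 to Tomm40l the log2 ratio was 3.63 and 3.56 with PC sg2, 3.52 and 3.76 with PC sg5, and 2.90 and 3.0 in the control. That of Timm17a to Timm17b was 1.17 and 1.20 with PC sg2, 1.35 and 1.42 with PC sg5, and 0.79 and 0.73 in the control. For Grpel1 to Grpel2, lower in PC libraries, the log2 ratio was 0.28 and 0.17 with PC sg2, 0.27 and 0.25 with PC sg5, and 0.61 and 0.70 in the control. The difference of means was 0.66, 0.53 and -0.41 for these 3 pairs in that order. The difference was smaller for Mtx1 to Mtx2 (0.35), Hspd1 to Hspe1 (0.26), Tomm20 to Tomm70a (-0.18), Pmpca to Pmpcb (0.17) and Clpp to Clpx (0.17).

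**Figure D4:**
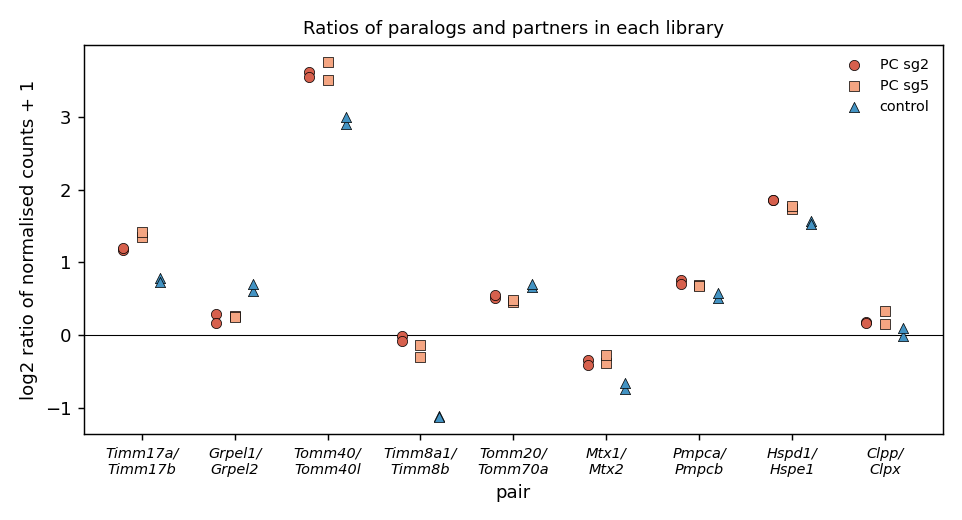
Log2 ratio of normalised counts + 1 (vertical axis) for 9 pairs of genes (horizontal axis) in each library, with circles for PC sg2, squares for PC sg5 and triangles for the control. In every pair the 4 PC points lie on 1 side of both control points, with a difference of means from 0.98 for Timm8a1 over Timm8b to -0.41 for Grpel1 over Grpel2.

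Other genes of mitochondrial import and quality control, taken from lists by function, were also mostly higher. These lists were drawn up with earlier results of these data known. Of 23 further genes of import, insertion and sorting 15 rose (65.2%) and 5 fell (21.7%), with a median log2 fold change of 0.31. Over all genes tested 34.3% rose and 33.6% fell. Ghitm, an inner membrane protein, averaged 28106 ± 287 normalised counts (SD, n = 4) in PC libraries and 13202 ± 136 (SD, n = 2) in the control and rose by 1.09 ± 0.023 (SE). Atad3a, an ATPase of the inner membrane, rose by 1.20 ± 0.034 (SE) and Dnaja3, the Hsp40 partner of Hspa9, by 1.10 ± 0.034 (SE). Chchd4 and Gfer form the disulfide relay that imports small Tims, and were chosen for mention after their values were seen. Chchd4 averaged 1937 ± 19 normalised counts (SD, n = 4) in PC libraries and 653 ± 30.7 (SD, n = 2) in the control and rose by 1.57 ± 0.054 (SE), and Gfer averaged 2402 ± 154 normalised counts (SD, n = 4) in PC libraries and 1333 ± 96.1 (SD, n = 2) in the control and rose by 0.85 ± 0.052 (SE). Among those that fell were Mtch1 (-0.78), Apool (-0.33), Oxa1l (-0.29) and Mtx3 (-0.17), also named after their values were seen. Mtch1 and its paralog Mtch2 insert proteins into the outer membrane, and Mtch2 rose by 0.54 ± 0.03 (SE). Of 14 further proteases and scaffolds 10 rose (71.4%) and 3 fell (21.4%), with a median of 0.35. The prohibitin gene Phb rose by 0.88 ± 0.031 (SE), the aminopeptidase gene Xpnpep3 by 0.73 ± 0.04 (SE) and Afg3l2, a subunit of the inner membrane m-AAA protease, by 0.45 ± 0.031 (SE). The 3 that fell, named after their values were seen, were Spg7 (-0.51), which encodes the partner of Afg3l2 in that protease, Oma1 (-0.30) and Yme1l1 (-0.15), 2 further inner membrane proteases. The highest Benjamini-Hochberg p by limma among the genes named in this group as risen or fallen was 0.00998 (Oma1).

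Among 5 transcription factors tied to mitochondrial stress 4 rose (80%), where 34.3% of all genes tested rose and 33.6% fell. This list and the next were also drawn up with earlier results of these data known. Ddit3, which encodes CHOP, averaged 15407 ± 598 normalised counts (SD, n = 4) in PC libraries and 2109.8 ± 17.9 (SD, n = 2) in the control and rose by 2.87 ± 0.03 (SE). Atf4, the main factor of the integrated stress response, averaged 23871 ± 280.5 normalised counts (SD, n = 4) in PC libraries and 12942 ± 44 (SD, n = 2) in the control and rose by 0.88 ± 0.024 (SE). Atf5, the factor most often linked to the mitochondrial unfolded protein response, averaged 25899 ± 1075 normalised counts (SD, n = 4) in PC libraries and 18200.4 ± 257 (SD, n = 2) in the control, a log2 fold change of 0.51 ± 0.029 (SE). Cebpb rose by 0.40 ± 0.031 (SE), while the heat shock factor gene Hsf1 had a log2 fold change of -0.02 ± 0.037 (SE) and did not pass (Benjamini-Hochberg p by limma = 0.642). Of 10 factors of mitochondrial biogenesis 9 rose (90%), with Myc at 2.89 ± 0.033 (SE), the coactivator gene Pprc1 at 1.04 ± 0.033 (SE) and Tfam, which packages mitochondrial DNA, at 0.48 ± 0.042 (SE). Mitochondrial ribosomal proteins, another nuclear-encoded set of similar destination, rose in 57 (73.1%) and fell in 8 (10.3%) of 78 genes. Their median log2 fold change was 0.35 against 0.44 for the 40 genes, and the difference between the 2 sets was not tested.

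Start regions were searched for known sites as a description, without a test. Windows of 250 bases before to 50 after a RefSeq start were at hand for 35 of the 40 genes, with 2 windows each for Hspd1, Timm22 and Tomm34, and a gene was counted when any window held the letters. There were 1.09 windows per gene in the set, against 1.27 in coding genes tested and 1.22 in all genes. The 5 without 1 were Grpel2, Hspa9, Timm21, Tomm40l and Tomm7. They were searched on both strands for 5 motifs. These were CCGGAAG, an ETS site as bound by GABP, CACGTG, the E-box, the site of the factor NRF1 (GCGCA and GCGC with any 1 base between), the heat shock element, and TGATGNAA, the core of the element bound by C/EBP-ATF dimers. The ETS letters stood in 17 of 35 genes (48.6%), against 19.6% of 10269 protein-coding genes tested and 9.93% of all 27025 genes with a window. The E-box stood in 20% of the 35, against 11.5% and 8.09%, and the genes of the set that held it include the antisense RNA Tomm6os. For the NRF1 site the shares were 11.4%, 11.2% and 5.19%. The heat shock element was found at Hspd1, Hspe1 and Timm9, where Hspd1 and Hspe1 share the bases printed above. In all it stood in 8.57% of the 35, 0.526% of the coding genes tested and 0.662% of all genes. No window of the 35 held the C/EBP-ATF letters, which 2.71% of the coding genes tested and 4.51% of all genes held. At shares this low, their absence from 35 genes cannot be read as a trait of the set. Other forms of C/EBP sites were not searched, so these windows may hold them. A match is a run of letters and no test of binding. Most genes with the ETS letters rose, while Mtx2 fell and Pmpcb and Timm10b did not pass. Most genes with a window but without these letters rose too, among them Timm8a1, Timm9 and Lonp1. Of all 40 genes 77.5% rose. Whether the letters go with the direction of change was not tested.

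The last 100 bases before the start are shown for Timm10, the strongest riser (chr2:84826921-84827020, plus strand), for Timm23, the presequence channel (chr14:32201892-32201991, minus strand), for Tomm22, whose 2 ETS matches overlap (chr15:79670768-79670867, plus strand), and for Trap1, which fell (chr16:4077811-4077910, minus strand). Each is read from 5′ to 3′ towards the gene, from RefSeq on GRCm38.p6, with capitals for ETS letters on either strand.
Timm10: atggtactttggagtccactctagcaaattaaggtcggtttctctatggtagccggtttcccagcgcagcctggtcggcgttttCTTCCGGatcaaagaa
Timm23: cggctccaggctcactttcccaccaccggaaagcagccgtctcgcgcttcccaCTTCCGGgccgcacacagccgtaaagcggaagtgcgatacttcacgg
Tomm22: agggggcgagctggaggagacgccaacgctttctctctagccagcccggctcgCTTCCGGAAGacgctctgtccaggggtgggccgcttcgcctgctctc
Trap1: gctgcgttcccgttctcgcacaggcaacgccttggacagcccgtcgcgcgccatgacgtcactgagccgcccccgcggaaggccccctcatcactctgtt
In Timm10 and Timm23 the capitals stand on the opposite strand, and in Trap1 none of the 5 motifs was found in these bases. The genes shown were picked and do not stand for the set. Timm8a1 and Timm9, which rose, had no ETS letters in their windows, while Mtx2, which fell, had them.

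Near-identical copies limit how exactly some of these genes can be counted. Against all other GENCODE transcripts, at 95% identity over at least 100 bases, 95.6% of the Timm23 transcript, 89.6% of Pam16, 71.1% of Hspd1, 66.5% of Hspe1 and 43.1% of Timm8a1 had a match. Of these copies 2 had a row in the table. Hspd1-ps3 had 149 and 148 normalised counts with PC sg2, 157 and 149.6 with PC sg5, and 91 and 76.1 in the control, and Gm16209, a copy of Timm23, held 23.3 to 49.2 normalised counts in PC libraries and 23.9 to 58.9 in the control. How reads with several matches were assigned is not given in the sources used here, and its part in the values of these 5 genes was not tested.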

How the data were processed

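RNA abundance was measured in 6 NIH-3T3 libraries of polyadenylated RNA, per the labels' protocols, with a kit (NEBNext Ultra RNA) without strand marking. Tools named in the submitters' processing notes are STAR, featureCounts, Trimmomatic, DESeq2 and bcl2fastq 2.17, and the build is GRCm38. Their settings, the annotation and the use of strand were not given in the sources used here. What the authors deposited is a table of normalised counts, a signal in which each read count is divided by the size factor of its library. Whole reads were recovered from its steps: 100% of the values came out whole (tolerance 0.01), at 22895172 to 71710049 reads per library. The lowest total of a listed gene was 61 reads over the 6 libraries. GENCODE M21 (GRCm38) gave symbols for 16498 of 16540 IDs.

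limma 3.58.1 in R 4.3.3 was fitted to log2(normalised count + 1) with 3 groups over all 6 libraries and an intensity trend. Tests were two-sided, with Benjamini-Hochberg adjustment over the 16526 genes that reached 10 normalised counts in 2 or more libraries. Alternatives were edgeR 4.0.16 and DESeq2 1.42.0 on the recovered reads, other pseudocounts, filters and scalings, no trend, 1 PC group, the replicate number as a block, and each library left out. On the recovered reads edgeR called 11424 genes for both guides against control, and limma on the deposited values called 11222. The genes and lists were chosen with earlier results of these data known. Values in every library are given for 8 genes fixed by name, the 8 highest and the 8 lowest called, and Hspe1 for its difference between guides; of the other lists the 3 smallest p-values and all stress factors are named.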

Additional observations from a re-analysis of the deposited data

Results flagged for a closer look

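Hspe1 was the 1 gene of the 40 whose level differed between the PC guides by its own test, with a log2 difference of 0.17 for PC sg5 against PC sg2 (Benjamini-Hochberg p by limma = 0.0247) and both PC sg5 libraries above both PC sg2 libraries. Its neighbour Hspd1 had a log2 difference of 0.069 in the same contrast and did not pass (Benjamini-Hochberg p by limma = 0.29). Groups of 2 libraries are too small for a test of single outlying libraries, so none was made.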

How the results depend on the processing

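Of the 33 genes called for both PC guides against control, 29 kept their direction and call under all 17 alternatives. The exceptions were Clpx, whose call was also lost with edgeR (adjusted p = 0.0521), DESeq2 (0.0881), quantile normalisation (0.0762) and 1 PC group (0.0515), and Tomm34, Tomm6 and Mtx2. Without the intensity trend, where 28 genes rose, Clpx, Tomm34 and Tomm6 lost their calls too. The count of genes that rose for both guides was 28 to 32 over the alternatives, and leaving out 1 library gave 28 to 31 that rose and 1 to 2 that fell. For PC sg2 against control the count of genes that fell was 1 with the 50 most abundant genes left out of the scaling, with DESeq2 and without the intensity trend, and 1 to 2 with 1 library left out. For PC sg5 against PC sg2 the count that rose was 0 without the intensity trend, where Hspe1 had an adjusted p of 0.628 by limma and 3 of the 40 had an unadjusted p under 0.05, against 1 call each by edgeR and DESeq2, and 0 to 1 with 1 library left out. The adjusted p of Hspe1 in that contrast ranged from 9.39e-05 with DESeq2 to 0.628. Genes that did not pass and turned sign were Pmpcb with quantile normalisation (-0.0024), and, with 1 library left out, Timm10b (-0.053 to 0.23), Tomm40l (-0.029 to 0.067) and Tomm7 (-0.016 to 0.026). The cause of these changes was not tested. Same-numbered libraries did not deviate together (correlations of -0.022 to 0.031 across genes), so the numbers were used as names and not as pairs. Such correlations cannot show whether same-numbered libraries were prepared together. With the replicate block the counts for both guides stayed at 31 that rose and 2 that fell. Between the guides, the block gave Hspe1 an adjusted p of 0.00254 by limma. In that contrast 11 of the 40 had an unadjusted p under 0.05 with the block and 7 without it. PC sg5 replicate 2, with 22895172 reads, is the least precise library; without it 29 genes rose.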
